A study of Mus musculus with 8 samples.

Results

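A set of 10 immediate early genes, also known to respond to tissue dissociation, was followed in sorted mouse intestinal epithelium: Fos, Fosb, Jun, Junb, Jund, Egr1, Atf3, Ier2, Ier3 and Dusp1. They were taken by symbol from the count tables and make up 10 of the 23366 gene symbols there, and all 10 had reads in each of the 8 libraries. RNA sequencing had been done on epithelial cells (CD326+, the epithelial surface protein Epcam) of 6-week-old male littermates, split by flow cytometry into a CD44- gate, enriched for villus cells, and a CD44+ gate, enriched for crypt cells, at 50000 cells a library. Every animal carried floxed Sox4 on both alleles. The control mice carried nothing further by the labels, and the Sox4 conditional knockout mice (Sox4cKO) also carried villinCre, a recombinase driven by the promoter of an epithelial gene, active from embryonic stage E10.5. No group with Cre and unfloxed Sox4 was among the samples, so Cre and the loss of Sox4 cannot be told apart. The labels CD44minus and CD44plus name the gates, so that each genotype has a group for either gate, 4 groups of 2 libraries each, and the CD44minus and CD44plus libraries of a given replicate number came from the same animal, which gave 4 animals in all. In a pool of sorted cells, fewer cells that express a gene and less RNA per cell cannot be told apart.

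Immediate early genes are transcribed within minutes of a stimulus, from promoters that already hold their activators, without the need for new protein. Growth factors, stress and the enzymatic or mechanical separation of a tissue can all switch them on, through kinase cascades that act on serum response factor with its Elk partners and on CREB and ATF proteins. Fos and Fosb pair with Jun, Junb or Jund to form AP-1, which binds DNA, Egr1 and Atf3 are further transcription factors of the response, and Dusp1 is a phosphatase that switches the kinases off again.

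In the mouse assembly GRCm38 (GENCODE models), Fos lies on chromosome 12 (85473890 to 85477273, plus strand), Fosb on chromosome 7 (19302696 to 19310051, minus strand) and Jun on chromosome 4 (95049034 to 95052222, minus strand). Junb (84974484 to 84978718, minus strand), Jund (70698949 to 70700616, plus strand) and Ier2 (84661331 to 84662852, minus strand) all lie on chromosome 8. Atf3 lies on chromosome 1 (191170296 to 191218039, minus strand) and Ier3 on chromosome 17 (35821684 to 35822923, plus strand). Dusp1 lies on chromosome 17, where RefSeq places it at 26505591 to 26508472 on the minus strand. The counts are of exons. Exons of Junb overlap Prdx2, and exons of the longer GENCODE model of Dusp1 overlap Ergic1, in both cases on the opposite strand. Whether counting used the strand is not given in the sources used here, so reads of these pairs may not be told apart.

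RefSeq promoter entries (GRCm38.p6) were at hand for 8 of the 10 genes, Egr1 and Ier2 being without one. The 250 bases before the transcript start of that table are shown for Fos, Fosb and Dusp1, the 3 genes with an entry whose share of the summed reads of the 10 genes did not overlap between the CD44 gates (below). Capitals mark the core of the cyclic AMP response element, TGACG on either strand, which CREB and ATF proteins can bind.
Fos, chr12:85473640-85473889, plus strand: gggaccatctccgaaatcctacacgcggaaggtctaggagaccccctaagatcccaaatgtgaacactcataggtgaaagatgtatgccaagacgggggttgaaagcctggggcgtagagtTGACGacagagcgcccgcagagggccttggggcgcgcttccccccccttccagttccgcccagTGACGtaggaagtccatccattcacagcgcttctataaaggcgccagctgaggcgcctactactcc
Fosb, chr7:19310046-19310295, minus strand: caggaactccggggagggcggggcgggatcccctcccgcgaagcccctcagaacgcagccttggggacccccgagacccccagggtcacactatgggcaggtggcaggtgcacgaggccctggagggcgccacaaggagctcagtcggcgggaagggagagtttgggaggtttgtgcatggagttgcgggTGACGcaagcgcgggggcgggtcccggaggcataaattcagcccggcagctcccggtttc
Dusp1, chr17:26508473-26508722, minus strand: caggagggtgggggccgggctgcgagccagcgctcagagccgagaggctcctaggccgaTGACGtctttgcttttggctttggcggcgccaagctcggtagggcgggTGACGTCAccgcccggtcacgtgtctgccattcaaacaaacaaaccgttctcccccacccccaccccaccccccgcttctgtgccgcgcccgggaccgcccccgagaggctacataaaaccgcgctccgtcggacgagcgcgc

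TGACG or its complement started at -129 and -66 in Fos, counted in bases from the transcript start, at -60 in Fosb, at -106 in Junb and at -7 in Atf3. In Dusp1 it started at -191 and at -143 and -140, the last pair overlapping as the 2 strands of 1 full palindrome, TGACGTCA, at -143. Jun, Jund and Ier3 held no match in this window. The sources differ on where Fosb starts: the GENCODE model reaches 19310051 and the RefSeq gene 19310118. The Fosb window, from 19310046, thus runs into both, and its match at -60 lies inside the RefSeq gene. GENCODE and RefSeq also place other starts apart: Atf3 at 191218039 and 191183333, Dusp1 at 26562128 and 26508472, and Jund at 70698949 and 70697739. All matches, and their absence, hold for the start in the promoter entry alone. Of 32851 mouse promoter entries, 17.8% hold TGACG on either strand in their 250 bases and 1.55% hold TGACGTCA. Fos also held TATAAA at -33, a motif present in 12.4% of all entries. None of the 8 genes held TGANTCA, the AP-1 site (6.75% of all entries), or a match to the CArG box of serum response factor (1.47%). These are matches of letters in a short window, and the element of Fos that serum response factor binds is known to lie further upstream. No binding was measured here.

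The libraries differed widely in depth and in scaling, which touches every value that follows. Reads assigned to genes ran from 886194 to 6963345 in the CD44minus libraries and from 6007554 to 13238050 in the CD44plus libraries. Reads that matched no counted exon made up 64.6% to 96.6%. These can include reads in introns or, if counting used the strand, on the opposite strand of a gene. Reads on olfactory and vomeronasal receptor genes, which gut epithelium is not expected to transcribe, stood at 1344 to 4058 CPM (counts scaled to a fixed library total) in control CD44minus replicates 1 and 2 and Sox4cKO CD44minus replicate 1, at 183 CPM in Sox4cKO CD44minus replicate 2 and at 66.7 to 353 CPM in the CD44plus libraries. The trimmed-mean (TMM) scaling factors were 1.68, 1.09 and 1.72 in the first 3 and 0.527 in Sox4cKO CD44minus replicate 2, which stood apart from its own replicate. Levels are therefore given both as TMM CPM (CPM after TMM scaling) and as total CPM (CPM of all gene reads, with no scaling factor). Sox4 checked the labels, with 1438 and 658 reads in control CD44plus (128 and 120.2 TMM CPM) and 123 and 271 reads in Sox4cKO CD44plus (17.8 and 25.7 TMM CPM), beside 1 to 21 reads in the CD44minus libraries. The gates also matched their labels: 10 enterocyte markers summed to 11031 to 57323 TMM CPM in CD44minus and 1419 to 2032 in CD44plus, and 8 crypt and stem cell markers to 353 to 497 and 7048 to 9307.

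Jun, a dimer partner of the Fos proteins, had the highest level of the 10 genes per kilobase of exon in all 8 libraries. It stood at 519 and 1091 TMM CPM in the CD44minus libraries of the controls and 1305 and 1293 in their CD44plus libraries, against 455 and 2914, then 1142 and 1763, in Sox4cKO. Sox4cKO CD44minus held both the lowest and the highest library. As total CPM the controls stood at 869 and 1192 in CD44minus and 1192 and 1178 in CD44plus, and Sox4cKO at 782 and 1536, then 1028 and 1405, so the control gates overlapped as total CPM but not as TMM CPM, while the Sox4cKO gates overlapped on both scales.

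Fos, the best known immediate early gene, stood at 308 and 497 TMM CPM in the CD44minus libraries of the controls and 599 and 477 in their CD44plus libraries, against 239 and 1507, then 512 and 644, in Sox4cKO. Its total CPM overlapped between the gates of the controls (516 and 543 in CD44minus, 548 and 435 in CD44plus). In Sox4cKO it was 411 and 794 total CPM in CD44minus and 461 and 514 in CD44plus. Fosb, a homologue of Fos, stood at 129 and 273 TMM CPM in the CD44minus libraries of the controls and 523 and 388 in their CD44plus libraries, against 107 and 670.5, then 355 and 657, in Sox4cKO. On the total CPM scale Fosb was 217 and 299 against 478 and 354 in the controls, CD44minus first, and 184 and 353 against 319 and 524 in Sox4cKO. The CD44plus library of an animal was above its CD44minus library for Fosb in 4 of 4 animals on total CPM and in 3 of 4 on TMM CPM, and for Fos in 2 of 4 on both scales.

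Junb and Jund, the other Jun proteins, are weaker activators than Jun in many settings, and Jund is the one most often present in resting cells. Junb stood at 154 and 241 TMM CPM in the CD44minus libraries of the controls and 314 and 409 in their CD44plus libraries, against 119.8 and 769.9, then 339 and 659.7, in Sox4cKO. Jund stood at 191 and 397 TMM CPM in the CD44minus libraries of the controls and 385 and 419 in their CD44plus libraries, against 219.9 and 1179, then 431 and 583, in Sox4cKO. For both genes Sox4cKO CD44minus replicate 2 was the highest library on this scale. As total CPM, Junb stood at 257 and 263, then 287 and 373, in the controls, and at 206 and 406, then 305 and 526, in Sox4cKO, so its highest library was Sox4cKO CD44plus replicate 2. Jund as total CPM stood at 319 and 434, then 351 and 382, in the controls, and at 378 and 622, then 388 and 465, in Sox4cKO.

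Egr1, a zinc finger transcription factor induced through serum response factor, stood at 166 and 291 TMM CPM in the CD44minus libraries of the controls and 782 and 612 in their CD44plus libraries, against 136 and 1005, then 515 and 907, in Sox4cKO. Its total CPM was 278 and 318 in CD44minus against 715 and 558 in CD44plus for the controls, and 233 and 529.8 against 464 and 723 for Sox4cKO. The gene lies on chromosome 18 (34859823 to 34864984, plus strand, GRCm38). The control gates did not overlap on either scale, while those of Sox4cKO did. Atf3, a stress-induced member of the ATF family that often represses, stood at 140.1 and 215 TMM CPM in the CD44minus libraries of the controls and 301 and 186 in their CD44plus libraries, against 73.8 and 515, then 152 and 216, in Sox4cKO. Its total CPM was 235 in both CD44minus libraries of the controls and 275 and 169 in CD44plus, and for Sox4cKO 127 and 271, then 137 and 172, so the groups overlapped.

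Ier2, a small nuclear protein of the growth factor response, stood at 53.2 and 88.1 TMM CPM in the CD44minus libraries of the controls and 207 and 188 in their CD44plus libraries, against 40.6 and 284, then 189.9 and 284, in Sox4cKO. On total CPM every CD44plus library of Ier2 lay above every CD44minus library (69.8 to 149.6 against 171 to 226). Dusp1, the phosphatase that inactivates p38, JNK and ERK kinases, stood at 47.2 and 80.6 TMM CPM in the CD44minus libraries of the controls and 160.0 and 167 in their CD44plus libraries, against 38.1 and 235, then 154 and 238, in Sox4cKO. On total CPM Dusp1 too had no overlap between gates (65.5 to 124 against 139 to 189.7). These were the 2 of 10 members for which every CD44plus library was above every CD44minus library on that scale, where 18.9% of all genes were.

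Ier3, which is linked to cell survival after stress, had the lowest level of the 10 genes per kilobase of exon in every library. It stood at 4.72 and 5.50 TMM CPM in the CD44minus libraries of the controls and 10.1 and 16.4 in their CD44plus libraries, against 3.96 and 23.7, then 15.3 and 60.8, in Sox4cKO. These rest on 7, 14, 8 and 87 reads in CD44minus and on 113, 90, 106 and 642 reads in CD44plus, and the exact 95% Poisson intervals for the 2 lowest counts were 2.81 to 14.4 and 3.45 to 15.8 reads. Such intervals cover counting error only. Read density on the receptor genes, applied to the length of Ier3, would give 33.1%, 16.4% and 43.7% of its reads in the 3 CD44minus libraries with the high receptor signal and 1.07% in the other. For the remaining 9 genes that share was at most 13.3% (Dusp1 in Sox4cKO CD44minus replicate 1).

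**Figure D1:**
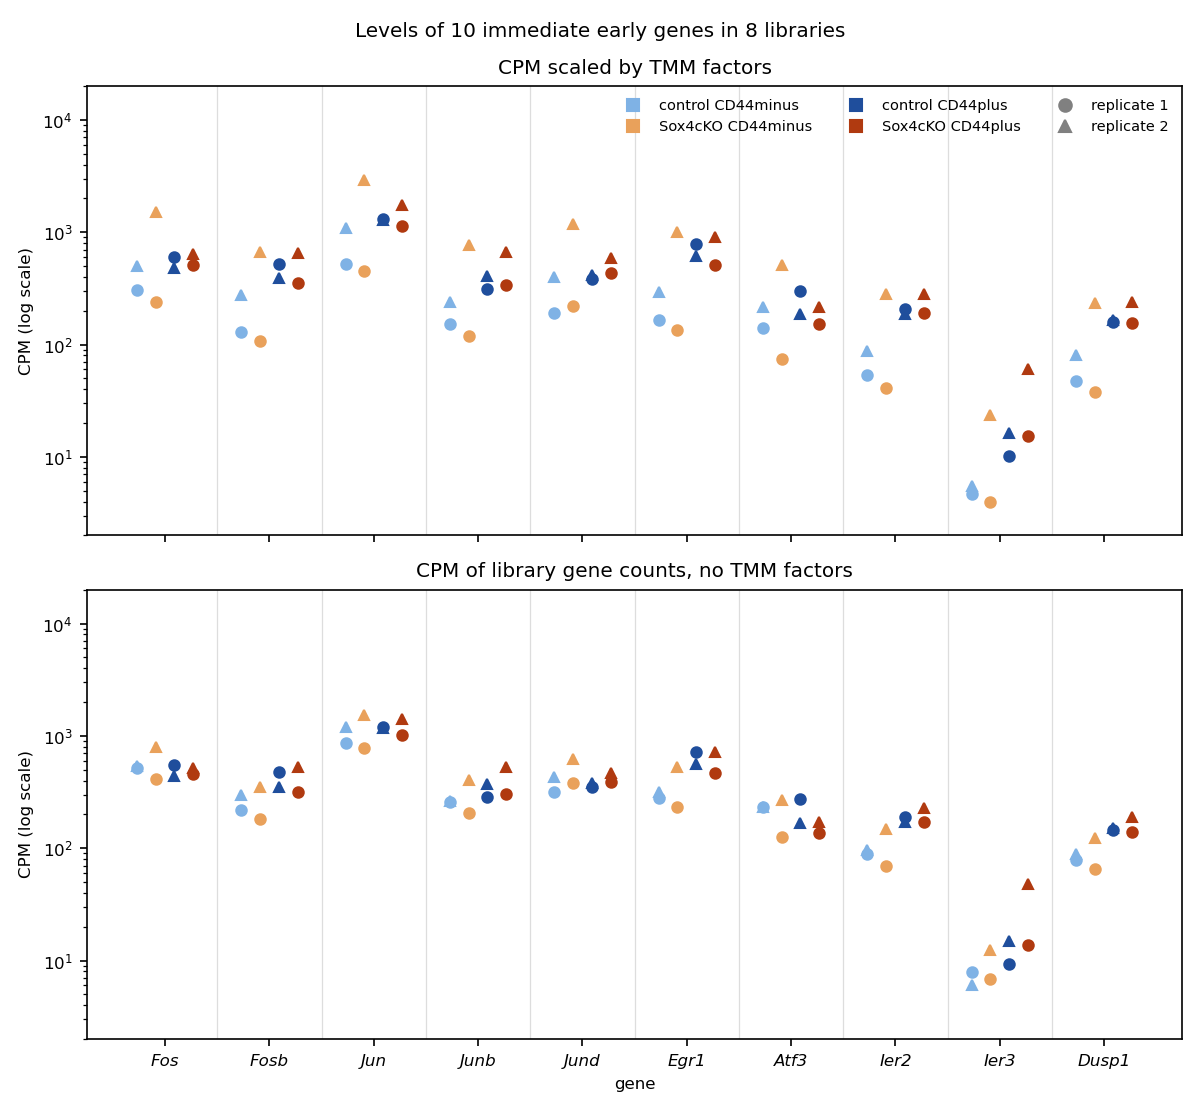
Level of each of the 10 genes in the 8 libraries, as TMM CPM (top) and total CPM (bottom), both on log axes, with colour for the group and circles and triangles for replicates 1 and 2. Sox4cKO CD44minus replicate 2 lies 5.36 to 7.41 times above its replicate on the TMM scale and 1.65 to 2.27 times above it on the total scale. The median ratio over 10900 genes was 2.64 and 0.846 on these scales.

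Per kilobase of exon, which allows genes to be compared with each other, the order of mean TMM CPM in CD44plus was Jun (431 per kb), Jund (272), Fos (237), Junb (187), Egr1 (157), Ier2 (143), Atf3 (99.2), Fosb (77.0), Dusp1 (54.3) and Ier3 (22.7). In CD44plus the range of Jun over the 4 libraries, 358 to 553 per kb, lay above that of Jund, 231 to 349.7, whereas Jund and Fos (203 to 274) overlapped, as did most neighbours further down. In CD44minus the order was the same for the first 4 genes, and Atf3 (109 per kb) stood before Egr1 (89.1) and Ier2 (76.5). There all neighbours overlapped, down to Dusp1 (11.5 to 70.8 per kb) and Ier3 (3.50 to 21.0). The lengths were those of GENCODE models, and the annotation used for counting is not given, so the order may differ under other models. Jund, for example, starts at 70698949 in GENCODE and at 70697739 in RefSeq, and Egr1 at 34859823 and 34861207.

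The question of the study was what the loss of Sox4 changes in villus-enriched and crypt-enriched cells. No member passed the edgeR quasi-likelihood test (Benjamini-Hochberg adjusted p below 0.05 over 20427 genes) between Sox4cKO and control in CD44plus, where 0% of all genes tested were called. Differences are log2 fold changes, Sox4cKO minus control. The members' median was 0.21 beside -0.00052 for all genes tested, and 9 of 10 were positive, from Egr1 (0.028, SE 1.02) to Ier3 (1.53, SE 0.76). Atf3 was the negative one (-0.40, SE 0.88). No member had an unadjusted p below 0.05 in this comparison, against 128 of all genes, and the smallest was 0.0593, for Ier3 (adjusted p = 1 by edgeR).

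The Ier3 value came with one library. Without Sox4cKO CD44plus replicate 2, at 60.8 TMM CPM, its log2 difference was 0.21 (SE 1.03), and the members' median was -0.088. That library also had the highest sums of immune and stromal markers among the CD44plus libraries: 12256 TMM CPM over 4 mast cell markers (1411 to 2612 in the other 3), 5030 over 9 T cell and intraepithelial lymphocyte markers (1938 to 2953), 717 over 7 B cell and myeloid markers (164 to 303) and 466 over 7 stromal and endothelial markers (186 to 269.9). All markers of these 4 lists had reads in it. Their part in the Ier3 level was not tested.

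In CD44minus the 10 genes were all positive between Sox4cKO and control, with log2 differences from 0.73 (Atf3, SE 0.89) to 1.46 (Ier3, SE 0.84), a median of 1.15 beside 0.19 for all genes, and none called by edgeR (adjusted p = 1.00 for each), as for 0% of all genes. None had an unadjusted p below 0.05, against 116 of all genes. The sign was set by a single library. Without Sox4cKO CD44minus replicate 2 the median turned to -0.76 and all 10 genes were negative. Without its replicate 1, 9 of the 10 were called higher (edgeR adjusted p 0.00877 to 0.0265, Jun at 0.0503), where 27.5% of all genes were called higher. In that fit the lone library left in the group is assumed to vary like the other groups. On library totals alone the median was 0.22, with Atf3 at -0.22. On the TMM scale Sox4cKO CD44minus replicate 2 also had the highest CD44minus sum of enterocyte markers (57323, against 11031 to 26424 in the others). The same held for 6 pan-epithelial markers (18255 against 2964 to 6499.9). As total CPM these sums lay closer to the other CD44minus libraries, at 30216 against 18952.5 to 28885 for enterocyte markers. For pan-epithelial markers they were 9622 against 5093 to 7105. The part of these markers in the members' levels was not tested.

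**Figure D2:**
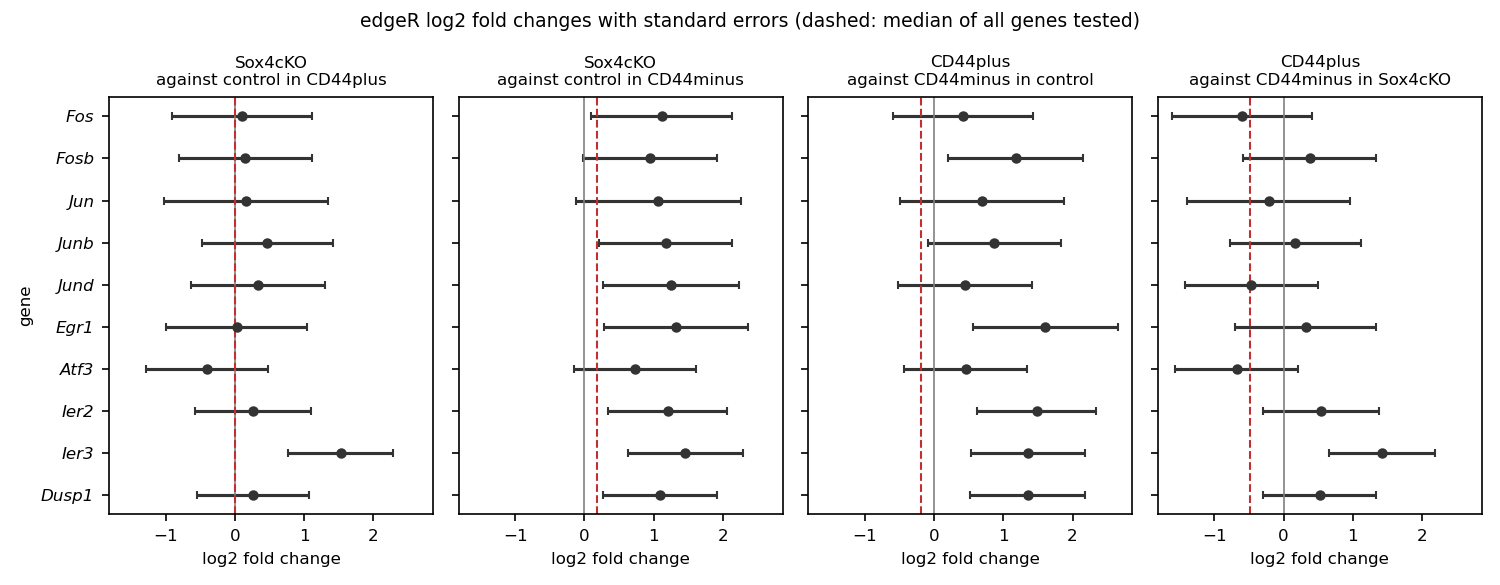
Log2 fold changes of the 10 genes by edgeR in 4 comparisons, with bars of 1 standard error and a dashed line at the median of all genes tested. On this TMM scale the points lie above 0 for all 10 genes in CD44minus between genotypes and in the controls between gates, against 9 and 7 genes on library totals, and none of the 10 passed the test.

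Between the gates of the control mice no member was called by edgeR either, where 2.46% of all genes were called (2.01% higher and 0.445% lower in CD44plus). All 10 genes were positive, CD44plus minus CD44minus, with a median log2 difference of 1.03 beside -0.19 for all genes. On library totals 7 were positive and 3 (Fos, Jund and Atf3) negative, with a median of 0.51 beside -0.77 for all genes, and with background subtracted again 7 and 3, with a median of 0.55 beside 0.10. The 4 with the smallest p were Ier2 (1.48, SE 0.86, adjusted p = 0.279), Ier3 (1.36, SE 0.83, adjusted p = 0.295), Dusp1 (1.35, SE 0.83, adjusted p = 0.296) and Egr1 (1.61, SE 1.04, adjusted p = 0.316). Fos had the smallest difference (0.42, SE 1.01). On the TMM scale with all 8 libraries, none of the 10 had an unadjusted p below 0.05 by edgeR, against 4694 of all genes. With the animal as a block, as both gates came from the same mice, 3659 genes were called in place of 502, and again no member (smallest adjusted p = 0.14 by edgeR).

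Egr1, Ier2 and Dusp1 passed in 3 other fits of the control gates. Fitted on the 4 control libraries alone, edgeR called them higher in CD44plus, by log2 1.42 (SE 0.59, adjusted p = 0.0314), 1.28 (SE 0.43, adjusted p = 0.00873) and 1.14 (SE 0.41, adjusted p = 0.0139), where 24.4% of all genes were called higher. The same 3 were called when Sox4cKO CD44minus replicate 1 was left out (24.1% of all genes called higher) or its replicate 2 (22.8%), fits in which that group gives no estimate of spread of its own. Relative to the median of all genes, the members' median stood 1.21 higher in CD44plus on the TMM scale, 1.28 higher on library totals and 0.45 higher after subtraction of the receptor-based background.

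In Sox4cKO mice the 10 genes were split between the gates: 6 were positive and 4 (Fos, Jun, Jund and Atf3) negative, from -0.68 (Atf3, SE 0.88) to 1.43 (Ier3, SE 0.77), with a median of 0.24 beside -0.48 for all genes. No member was called by edgeR (smallest adjusted p = 0.332, Ier3) or had an unadjusted p below 0.05, against 3611 of all genes, and 2.59% of all genes were called, 1.66% higher and 0.93% lower. With the animal as a block 1712 genes were called in place of 529, and no member (smallest adjusted p = 0.101 by edgeR). Without Sox4cKO CD44minus replicate 2 the members' median was 2.16 and 6 of them (Fosb, Junb, Egr1, Ier2, Ier3 and Dusp1) were called higher by edgeR (adjusted p 0.00394 to 0.0199), where 25% of all genes were. Without its replicate 1 the median was -0.56 and 1 member, Atf3, was called lower (log2 -1.48, SE 0.49, adjusted p = 0.0415), where 8.25% of all genes were.

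The effect of Sox4cKO was not shown to differ between the gates for any member: 0% of all genes were called by edgeR in that test. The members' differences between the 2 effects ran from -1.29 (Egr1, SE 1.45) to 0.071 (Ier3, SE 1.16), with a median of -0.91 beside -0.37 for all genes. On library totals the members' median was -0.13. Without Sox4cKO CD44minus replicate 2 it was 1.01, with all 10 positive (0.76 for Jund to 1.93 for Ier3), and without its replicate 1 it was -1.66, with all 10 negative. On the TMM scale with all 8 libraries, no member had an unadjusted p below 0.05 by edgeR, against 50 of all genes. These comparisons share libraries with those above and are no separate evidence.

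Ratios of the genes to each other within a library do not depend on depth or scaling. The share of each gene in the summed reads of the 10 genes was therefore read as well. This measure was chosen after the levels had been seen, so it is given as a description without a test. The 10 genes together took 0.287% and 0.347% of gene reads in the CD44minus libraries of the controls and 0.419% and 0.379% in their CD44plus libraries, against 0.246% and 0.480%, then 0.343% and 0.479%, in Sox4cKO, or 2540 to 63449 reads. The gates overlapped in this sum.

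Within that sum the mixture of genes differed between the gates in both genotypes. In the controls Egr1 made up 9.69% and 9.16% of it in CD44minus and 17.1% and 14.7% in CD44plus, and in Sox4cKO 9.47% and 11.04%, then 13.5% and 15.1%. Fos went the other way, from 18.0% and 15.6% to 13.1% and 11.5% in the controls and from 16.7% and 16.6% to 13.5% and 10.7% in Sox4cKO. Every CD44plus library thus lay above every CD44minus library for Egr1 and below for Fos. Ier2 (2.77% to 3.12% in CD44minus against 4.51% to 4.99% in CD44plus), Dusp1 (2.54% to 2.76% against 3.49% to 4.05%) and Fosb (7.37% to 8.60% against 9.32% to 11.4%) also lay higher in CD44plus without overlap. Jun, Junb, Jund, Atf3 and Ier3 overlapped between the gates.

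Of all genes tested, measured in the same way as reads per summed reads of the 10 genes, 8.45% lay higher in every CD44plus library than in every CD44minus library and 9.04% lower. Among the 10 members the counts were 4 and 1. The members are part of the sum they are divided by and other genes are not, so these percentages are no like-for-like base. The same holds for the percentages between the genotypes below. The same 5 members were apart after subtraction of the receptor-based background. With any library left out 5 to 7 members were apart. That omission can only add members, never remove them, so it is no check of the result. Shares of a sum are not independent, since one gene's gain lowers the others.

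**Figure D3:**
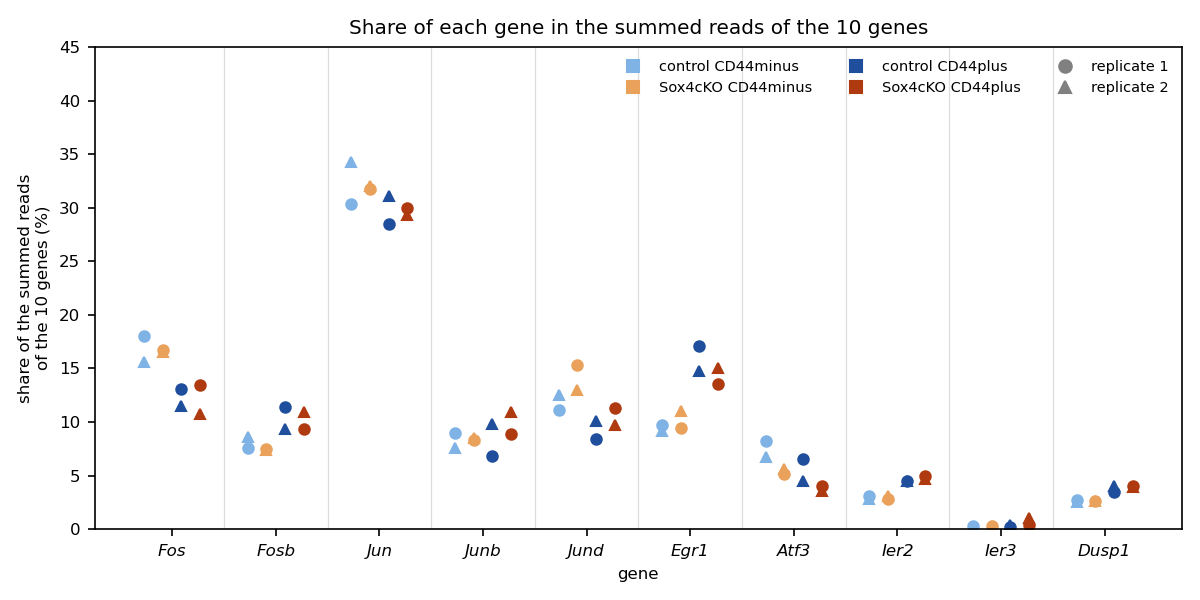
Share of each gene in the summed reads of the 10 genes, in percent, in the 8 libraries, with colour for the group and symbols for the replicates. Jun takes 28.4% to 34.3% everywhere, while Egr1 lies higher and Fos lower in all 4 CD44plus libraries.

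The ratios to Fos restate these shares animal by animal. As Fos had the lower share in every CD44plus library, a rise of Egr1, Ier2, Dusp1 and Fosb per Fos read was fixed in advance. For these genes only the size of the rise is added here. Egr1 had 0.538 and 0.586 reads per Fos read in the CD44minus libraries of the controls and 1.31 and 1.28 in their CD44plus libraries, and 0.567 and 0.667 against 1.01 and 1.41 in Sox4cKO. The ratio of CD44plus to CD44minus was 2.42-fold and 2.19-fold in the control animals and 1.77-fold and 2.11-fold in the Sox4cKO animals, a geometric mean of 2.11 (SD of the folds 0.269, n = 4 animals), and 2.15 with background subtracted. Per Fos read, Ier2 was 2.00 to 2.34 times higher in CD44plus over the 4 animals, Dusp1 1.74 to 2.37 times and Fosb 1.48 to 2.29 times. Jun (1.17 to 1.42 times), Junb (1.05 to 2.01 times) and Ier3 (1.10 to 6.01 times) were also higher per Fos read in CD44plus in all 4 animals. Atf3 per Fos read ranged from 0.9005 to 1.10 times and Jund from 0.914 to 1.16 times. Sox4cKO CD44minus replicate 2, which stood apart in level, lay beside its replicate in these ratios. An exact two-sided permutation test over 4 pairs cannot go below p = 0.125.

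**Figure D4:**
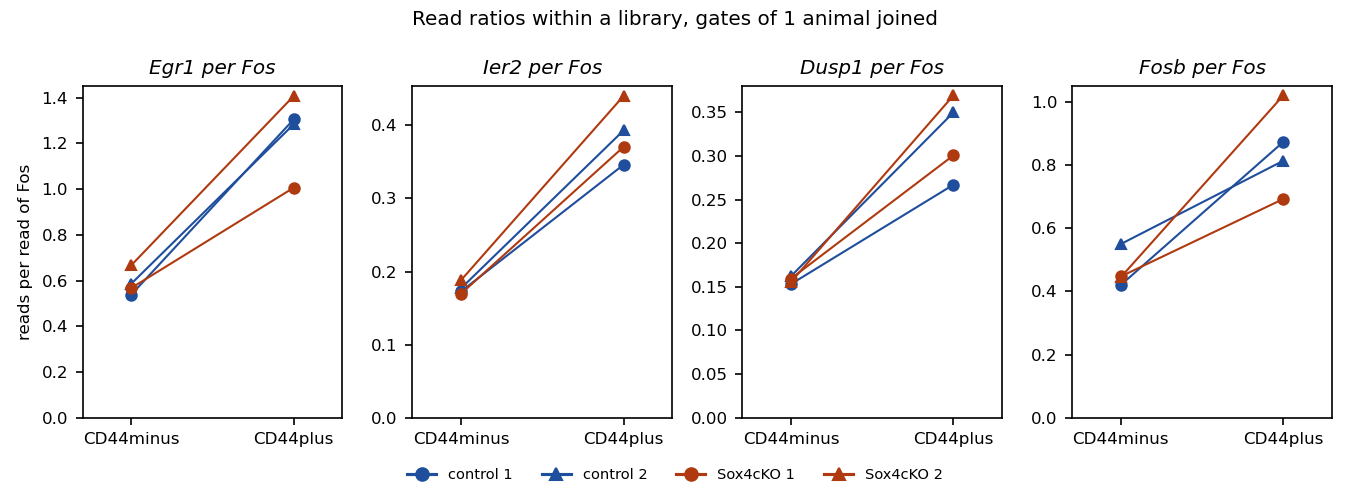
Reads of Egr1, Ier2, Dusp1 and Fosb per read of Fos in each library, with the CD44minus and CD44plus libraries of an animal joined by a line (blue for control, red for Sox4cKO). Every line rises, as the shares of these genes and of Fos require, and the CD44minus libraries of Egr1, Ier2 and Dusp1 lie close together.

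Crypt and immune cell markers moved with the gates beside these shares. In the CD44plus libraries 9 T cell and intraepithelial lymphocyte markers summed to 1938 to 5030 TMM CPM and 4 mast cell markers to 1411 to 12256, against 163 to 787 and 47.2 to 71.4 in CD44minus, although all cells had been sorted as CD326+. All of these T cell and mast cell markers had reads in every library. The alpha globin genes Hba-a1 and Hba-a2 had none. The beta globin genes Hbb-bs and Hbb-bt were not among the gene symbols, so the content of red blood cells was not judged. The part of other cell types in the shares was not tested.

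Between the genotypes 3 members were apart in each gate. In CD44plus, 2 members lay higher in Sox4cKO than in control without overlap, Ier2 (4.99% and 4.72% against 4.52% and 4.51%) and Ier3 (0.403% and 1.01% against 0.220% and 0.396%), where 6.13% of all genes did. Atf3 lay lower (3.998% and 3.59% against 6.57% and 4.47%), where 15.8% of all genes did. In CD44minus Jund lay higher (15.3% and 13.0% against 11.1% and 12.5%), where 1.23% of all genes did. Atf3 (5.15% and 5.65% against 8.19% and 6.75%) and Fosb (7.46% and 7.37% against 7.56% and 8.60%) lay lower there, where 5.06% did, and Fosb overlapped once the background was subtracted. With 2 libraries against 2, an exact two-sided permutation test cannot go below p = 0.333.

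Another 95 genes of the same response, in 6 lists, were read from the same edgeR fit, and all 95 were tested. None was called between the genotypes in either gate. Between the gates 1 of the 95 was called higher in CD44plus in the controls, where 2.01% of all genes were, and 2 of the 95 in Sox4cKO, where 1.66% were. Myc, a growth-promoting transcription factor and a known crypt gene, was the 1 gene called between the control gates: it stood at 16.2 and 14.2 TMM CPM in control CD44minus and 144 and 150.1 in control CD44plus, a 9.72-fold difference (log2 3.28, SE 0.68, adjusted p = 0.0223). In Sox4cKO Myc stood at 10.4 and 12.8 TMM CPM in CD44minus and 171 and 182 in CD44plus, 15.2-fold apart (log2 3.92, SE 0.70, adjusted p = 0.0139). On the TMM scale Myc stood close to its replicate in Sox4cKO CD44minus replicate 2, where the 10 members did not. Over 10900 genes with a mean of at least 10 TMM CPM, replicate 2 was a median of 2.64 times replicate 1. The quartiles were 1.18 and 4.02, and the median on library totals was 0.846. Myc had 47 reads in replicate 2, of 6963345 gene reads, and 21 in replicate 1, of 1175251. The 10 members were higher than in replicate 1 on both scales, whereas Myc was lower on library totals. Its call was lost in 4 of 16 alternative fits in the controls, each of which left out 1 control library (largest adjusted p = 0.38), and in 2 of 16 in Sox4cKO, the fit of Sox4cKO alone and the fit without Sox4cKO CD44plus replicate 2 (largest adjusted p = 0.112).

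Dusp2, a phosphatase of the same family as Dusp1 and best known from blood cells, was the other gene called, in Sox4cKO. It had 4 and 6 reads in Sox4cKO CD44minus (1.98 and 1.63 TMM CPM) and 85 and 293 in Sox4cKO CD44plus (12.3 and 27.8 TMM CPM), a log2 difference of 3.47 (SE 0.90, adjusted p = 0.0477 by edgeR). It was called in 7 of 16 alternatives, and the adjusted p was 0.827 at its largest and 0.00313 at its smallest. The T cell and mast cell marker sums given above were also higher in these CD44plus libraries, and their part was not tested. Receptor genes held 3.09 and 0.826 reads per kb in Sox4cKO CD44minus replicates 1 and 2. The background share of the few Dusp2 reads there is not given.

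No other gene of the lists was called. Among 9 other AP-1 genes the median log2 difference between the control gates was 0.12 and between the Sox4cKO gates -0.39, with Fosl2 at 77.5 to 485 TMM CPM and Mafk at 46.6 to 257 over the 8 libraries. For 16 further immediate early transcription factors the same medians were 1.24 and 0.61, and Klf6 (100.5 to 629 TMM CPM) and Klf4 (88.2 to 509.7) were the most abundant. For 27 rapid response and feedback genes they were 0.48 and -0.25. Zfp36l2, which speeds the decay of mRNAs, stood at 39.1 to 299 TMM CPM in CD44minus and 425 to 608 in CD44plus (log2 2.73, SE 0.99, adjusted p = 0.135 in the controls), and its homologue Zfp36 at 155.5 to 812 and 194 to 286. For 9 phosphatases other than Dusp1 the medians were 0.56 and -0.011, with Dusp16 and Dusp5 the most abundant.

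Heat shock and chaperone genes, which respond to a different stress sensor, had medians of 1.59 between the control gates and 0.78 between the Sox4cKO gates over 14 genes, beside -0.19 and -0.48 for all genes, and none was called. Hsp90ab1, a constitutive chaperone, stood at 412 to 2345 TMM CPM in CD44minus and 4243 to 5147 in CD44plus (log2 2.85, SE 1.46, adjusted p = 0.239 in the controls), and Hspa8 at 66.4 to 367 and 497 to 608. For 20 upstream kinases and factors, among them Map2k2 and Mkl2, the medians were 1.03 and 0.62.

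Across the 8 libraries, the genes whose TMM CPM followed the members' mean profile most closely were Ppp2r5c, Tsc2, Ski, Rtfdc1 and Etnk1 (Pearson r of log2 values 0.996 for Ppp2r5c and 0.995 for Etnk1), and those that ran most against it were Ccdc30, D6Ertd527e, Lifr, Camta1 and Cdnf (-0.99 for each). Of 10890 genes with a mean of at least 10 TMM CPM, 24.7% reached an r of 0.9 or more, and the median was 0.75. All these values share the 8 libraries and their scaling. Ppp2r5c stood at 263 TMM CPM and Ccdc30 at 1.63 in Sox4cKO CD44minus replicate 2, against 69.3 and 30.2 in its replicate 1.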

How the data were processed

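Each of the 8 deposited tables gives unnormalized counts by gene symbol for 1 library, made by the authors with bcl2fastq 2.17.4, Trimmomatic 0.36, STAR 2.2.5b and HTSeq 0.6.1p1 on mm10, per the submitters' processing notes. Total RNA libraries came from a stranded kit for small inputs, per the labels' protocols. The annotation and the strand setting of the counting are not given in the sources used here. The 5 summary lines of HTSeq were left out of library sizes and tests, and reads assigned to no gene were 64.6% to 96.6% of those counted or so marked. No 2 tables were identical.

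Counts were tested with edgeR 4.0.16 (R 4.3.3): quasi-likelihood test, 1 mean per group over all 8 libraries, genes with a minimum count of 10 kept, TMM scaling, Benjamini-Hochberg adjustment over 20427 genes and a threshold of 0.05, for 5 comparisons. Steps were tested on simulated data. Exon lengths came from GENCODE on GRCm38. Background was taken as reads per kb of coding length over 1427 olfactory and vomeronasal receptor genes.

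The members and lists were chosen with earlier results of these data known. Of the lists, genes that passed were named, or else the 2 most abundant. For likeness the 5 highest and 5 lowest correlations were named. Both gates of a replicate number came from 1 animal, as the names of the deposited tables show; deviations from group means correlated at 0.103 (control) and 0.526 (Sox4cKO). Replicates of a group are separate animals, per the series text. Across genotypes the numbers name no shared animal, so the replicate block there adjusts for no known pairing. Between gates the block is the animal. Alternatives were scaling, the 45S RNA gene left out, no filter, DESeq2 1.42.0, background subtraction, fits on a part of the libraries, a replicate block and each library left out. A count of 0 allows 3 reads, 0.227 to 3.39 CPM over the libraries.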

Additional observations from a re-analysis of the deposited data

How the results depend on the processing

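Values are log2 differences unless counts are named. No member was called in any comparison with all 8 libraries in the edgeR fit, nor with other scaling, without the 45S ribosomal RNA gene Rn45s, without the filter, with DESeq2, with background subtracted or with the replicate block; the exceptions were fits on fewer libraries. On the control libraries alone 3 members were called between gates, and when a library was left out 0 to 9 were called between genotypes in CD44minus, 0 to 3 between the control gates and 0 to 6 between the Sox4cKO gates. Counts of all genes moved more. Between genotypes in CD44plus they were 17 on that gate alone and 1 with the replicate block. Between the control gates they were 2091 on library totals, 1065 without Rn45s, 994 without the filter, 2227 with DESeq2, 2102 with background subtracted, 9877 on control libraries alone and 3659 with the replicate block. Between the Sox4cKO gates they were 2039, 1018, 884, 1781, 1920, 0 (Sox4cKO libraries alone) and 1712 in the same order. With a library left out they were 0 to 24 and 0 to 7613 between genotypes in CD44plus and CD44minus, 0 to 7362 and 11 to 8440 between the control and the Sox4cKO gates, and 0 to 254 for the difference of the genotype effects.

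Some uncalled values of members changed sign. Between genotypes in CD44plus Fos was -0.011 and Egr1 -0.10 on library totals, Egr1 -0.021 without Rn45s and -0.037 with background subtracted, and Fosb -0.077 and Egr1 -0.17 with the replicate block. In CD44minus Atf3 was -0.22 on library totals and -0.18 with background subtracted. Between the control gates Fos, Jund and Atf3 were -0.11, -0.045 and -0.080 on library totals and -0.085, -0.038 and -0.037 with background subtracted. Between the Sox4cKO gates Jun was 0.066 on library totals, 0.068 without Rn45s, 0.11 with background subtracted and 0.30 with the replicate block. The cause was not tested. The replicate block changed no call of a member. Between genotypes it used the replicate number alone, which names no shared animal.

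With 1 library left out, the ranges between genotypes in CD44plus were -0.071 to 0.28 (Fos), -0.36 to 0.41 (Fosb), -0.18 to 0.33 (Jun), -0.092 to 0.77 (Junb), -0.44 to 0.26 (Egr1), -0.056 to 0.41 (Ier2) and -0.085 to 0.43 (Dusp1), each lowest without Sox4cKO CD44plus replicate 2. In CD44minus they were -0.76 to 1.89 (Fos), -0.92 to 1.71 (Fosb), -0.83 to 1.84 (Jun), -0.73 to 1.94 (Junb), -0.43 to 1.98 (Jund), -0.76 to 2.12 (Egr1), -1.28 to 1.51 (Atf3), -0.81 to 1.98 (Ier2), -0.39 to 2.173 (Ier3) and -0.76 to 1.85 (Dusp1), each lowest without Sox4cKO CD44minus replicate 2 and highest without replicate 1. Between the Sox4cKO gates they were -1.38 to 1.28 (Fos), -0.41 to 2.25 (Fosb), -1.01 to 1.68 (Jun), -0.63 to 2.07 (Junb), -1.22 to 1.21 (Jund), -0.50 to 2.40 (Egr1), -1.48 to 1.33 (Atf3), -0.26 to 2.55 (Ier2) and -0.26 to 2.37 (Dusp1), each lowest without Sox4cKO CD44minus replicate 1 and highest without replicate 2. Egr1 per Fos read, an alternative added after the data were seen, was 2.02 to 2.24 times higher in CD44plus over the same omissions.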
